A study of Sciaenops ocellatus with 36 samples.

Results

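NOTUM and 9 other genes that restrain or tune Wnt signalling were followed in whole red drum (Sciaenops ocellatus) embryos and larvae exposed to Deepwater Horizon oil. The genes were taken by symbol, as the rows named NOTUM, AXIN2, LEF1, TCF7, WIF1, DKK1, SFRP1, SFRP2, NKD1 and RSPO3 in 6 count tables, 10 of 56338 symbols in all. NOTUM was selected on its measured change with slick oil between ages, so its slick-oil values are given as a description, without a test.

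Wnt ligands are lipid-bearing secreted proteins that bind Frizzled and LRP receptors and stabilise beta-catenin, which then acts with LEF1 and TCF proteins on target genes. Several targets feed back on the signal. NOTUM is an extracellular enzyme that removes the lipid from the ligand. AXIN2 is a scaffold for beta-catenin breakdown and NKD1 an antagonist of Dishevelled, both inside the cell. DKK1 blocks the LRP co-receptors, while SFRP1, SFRP2 and WIF1 bind ligands outside the cell. RSPO3 works in the other direction and raises receptor levels. In fish embryos the pathway patterns the body axis and later the fins, gut and skeleton.

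Each library came from 30 pooled animals of one age, 24, 48 or 72 hours post fertilization (hpf), held in clean water or in water with oil. The source oil was a non-weathered crude named MASS, listed at a concentration of 0.27%. The slick oil, named OFS, was naturally weathered and was listed at 2.5%, so the doses of the oils differed. All animals came from spawns of captive brood stock and all, controls included, had been bathed in formalin before the test. The labels list 36 samples in 12 groups of 3, and 29 libraries in 10 groups are used here.

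Column headers disagreed with the labels at some places. The columns placed as source oil at 48 hpf carry the names of slick-series clean-water libraries, so no source-oil group exists here at 48 hpf. The third control column beside slick oil at 24 hpf is a 48 hpf library and was left out, which leaves 2 controls. Slick oil at 72 hpf was deposited beside the clean-water libraries of the source series, and both oils are therefore set against the same 3 controls at that age. The 9 slick-oil libraries carry sheet numbers of which 6 repeat those of other libraries, and no number repeats among the others, and what these numbers mark is not stated. Any technical difference they mark cannot be told apart from slick oil.

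The 24 hpf source-oil libraries held total counts of 4770544 to 5878886, and the remaining libraries 2532402 to 3280328. CYP1A1, the detoxifying enzyme induced by oil hydrocarbons, was higher in oil without overlap on either scale. In the 24 hpf source-oil table it stood at 107 to 176 CPM (read counts scaled to library size) in clean water and 1994 to 2359.5 CPM in oil. Among the remaining libraries it stood at 181 to 559 CPM and 2480 to 3976 CPM. The 24 hpf source-oil table gave different values for some symbols than the others, and levels are compared only within it or only among the remaining tables. Nothing in the labels says that libraries came from separate spawns, so p-values measure the spread between pools of animals.

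NOTUM stood at 51.1 to 67.2 CPM in all clean-water libraries of the 5 tables that share a scale, and was far above that in both oils at 72 hpf. At 72 hpf the controls held 62.2, 61.8 and 62.0 CPM, the source-oil libraries 138, 157 and 151 CPM, and the slick-oil libraries 145, 166 and 159.9 CPM. The 6 oil libraries all lay above every control, and the oil groups overlapped each other. The means were 62.0 ± 0.192, 148 ± 9.77 and 157 ± 10.5 CPM (SD, n = 3 each).

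At 72 hpf NOTUM rose with source oil by 1.28 on the log2 scale (SE 0.10, a 2.42-fold change; adjusted p = 6.33e-10, edgeR's quasi-likelihood test, Benjamini-Hochberg adjusted over every gene tested). Those 3 controls also entered the slick-oil values for which NOTUM was picked. Against the 3 clean-water libraries of the source series at 48 hpf, which played no part in that, the log2 difference was 1.30 (adjusted p = 2.59e-09), although age then differs as well. The slick-oil log2 difference at 72 hpf was 1.36, and slick exceeded source oil by 0.10 on the log2 scale.

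With slick oil at 48 hpf, NOTUM held 95.6, 82.0 and 83.4 CPM against 56.0, 60.1 and 62.4 CPM in clean water. The groups were apart, with a log2 difference of 0.56 between means of 87.0 ± 7.47 and 59.5 ± 3.28 CPM (SD, n = 3 each). At 24 hpf the slick-oil libraries held 69.5, 57.3 and 78.1 CPM and the controls 64.8 and 61.4 CPM. Those groups overlapped, and the log2 difference was 0.14. The slick-oil difference was thus 0.45 larger at 48 than at 24 hpf, 0.78 larger at 72 than at 48 hpf and 1.18 larger at 72 than at 24 hpf on the log2 scale, which is the pattern NOTUM was picked for.

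Source oil at 24 hpf offered a comparison that had no part in choosing NOTUM. The controls held 54.0, 38.8 and 40.0 CPM and the oil libraries 47.1, 57.7 and 63.1 CPM. The first control lay among the oil libraries, and the log2 difference of 0.33 (SE 0.13, edgeR adjusted p = 0.17) did not pass the test. Without the first control it was 0.50 with an adjusted p of 0.025, and without the first oil library 0.44 with 0.0281, so single libraries decided this call. With the replicate number as a block NOTUM was also called (0.33, edgeR adjusted p = 0.0192). Whether those numbers pair samples is not settled.

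**Figure D1:**
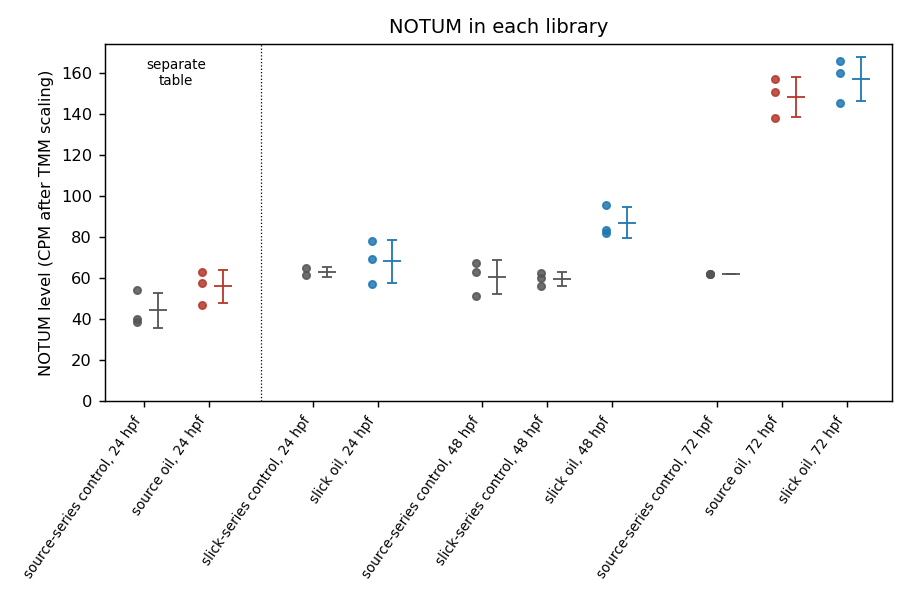
NOTUM level (CPM) in each library by age and treatment, with the mean and SD of each group; the 24 hpf source-oil table is scaled on its own. Both oil groups at 72 hpf sit between 138 and 166 CPM, above the controls at 61.8 to 62.2 CPM.

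The authors' deposited tables give log2 differences for NOTUM of 0.29 with source oil at 24 hpf and 1.22 at 72 hpf, and of 0.48 with slick oil at 48 hpf and 1.30 at 72 hpf. Ranked by log2 difference from the most raised gene, NOTUM was 136 of 8980 genes with source oil at 72 hpf and 41 of 8969 with slick oil. At 48 hpf with slick oil it was 311 of 9088. At 24 hpf it was 899 of 9790 with source oil and 2321 of 8959 with slick oil.

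The other feedback genes did not move as a block with NOTUM. Of the other 9, 8 could be tested in each comparison, since WIF1 counts were 0 outside the 24 hpf source-oil table and NKD1 counts were 0 inside it. At 72 hpf, 3 of 8 were called with source oil (TCF7 and DKK1 higher, SFRP2 lower) where 20.4% of all genes were called. With slick oil, 3 of 8 were called (TCF7 higher, SFRP1 and SFRP2 lower) where 18.7% of all genes were called. Since the oils share their controls at 72 hpf, these counts are not independent of each other.

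The median log2 difference of the 8 genes was -0.13 with source oil and 0.24 with slick oil at 72 hpf, and that of all genes tested was 0.00 and 0.01. At 24 hpf 1 of 8, SFRP2, was called lower with source oil (5.42% of all genes called) and also with slick oil (2.19% called). At 48 hpf with slick oil none of the 8 was called by edgeR, where 2.66% of all genes were. There, 2 of the 8 had an unadjusted p under 0.05, as did 1507 of all 9088 genes tested.

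**Figure D2:**
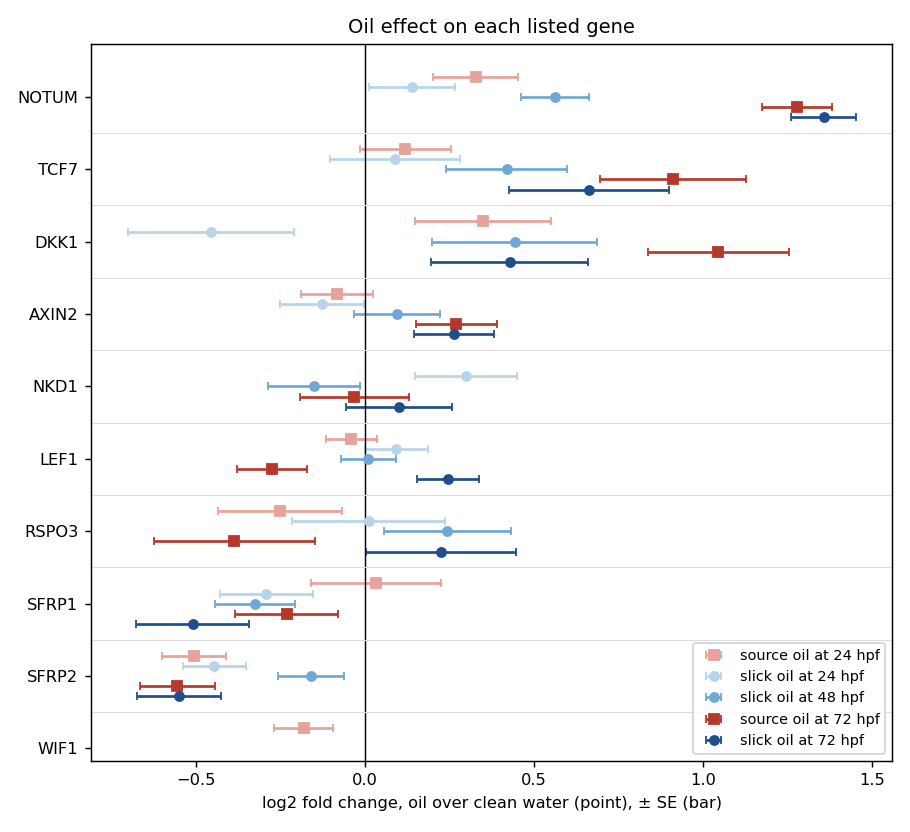
Log2 difference, oil against clean water, for each of the 10 genes in the 5 oil comparisons, with bars of 1 standard error to each side. NOTUM lies at 1.28 and 1.36 at 72 hpf, SFRP2 is negative in every comparison, and AXIN2 and NKD1 lie between -0.15 and 0.30.

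Among the nuclear partners of beta-catenin, TCF7 was called higher at 72 hpf with source oil and, less firmly, with slick oil. The 72 hpf controls held 9.63, 7.78 and 9.98 CPM and the source-oil libraries 19.2, 15.7 and 16.3 CPM, with no overlap. The increase was 0.91 on the log2 scale (SE 0.22, edgeR adjusted p = 0.00301). Slick-oil libraries held 9.71, 16.2 and 17.2 CPM, of which the first lay inside the control range.

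The slick-oil difference for TCF7 at 72 hpf was 0.66 (SE 0.24, edgeR adjusted p = 0.0476). That call was lost when any 1 of the 3 controls, or the second or the third slick-oil library, was left out (adjusted p from 0.0853 to 0.221). It was also lost with DESeq2 (adjusted p = 0.18) and in the unfiltered edgeR fit (adjusted p = 0.0515). At 48 hpf the slick-oil libraries held 17.7, 15.6 and 20.0 CPM and the controls 14.9, 11.3 and 13.9 CPM. These did not overlap, but the log2 difference of 0.42 did not pass the test (edgeR adjusted p = 0.258). TCF7 differences at 24 hpf were 0.12 with source oil and 0.09 with slick oil, neither called.

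LEF1, the more abundant of the pair, stood on opposite sides of the controls in the oils at 72 hpf. Its levels were 109.6, 103 and 109 CPM in controls, 92.1, 80.5 and 90.2 CPM with source oil, and 118, 132 and 127 CPM with slick oil. No source-oil or slick-oil library entered the control range. Neither difference from the controls passed the edgeR test, at -0.28 with source oil (adjusted p = 0.0609) and 0.25 with slick oil (adjusted p = 0.0563). In the edgeR fit of all libraries LEF1 was called lower with source oil (-0.29, adjusted p = 0.0194), as it was with a block on the header codes (-0.28, adjusted p = 0.0421). That block was chosen after seeing the data, and the codes were not taken to pair samples. DESeq2, its size-factor scaling and the unfiltered fit did not call LEF1 there, nor did any of the 6 fits that left out 1 library.

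Of the antagonists inside the cell, AXIN2, often read as a general target of beta-catenin, was not called in any of the 5 oil comparisons. At 72 hpf it held 43.3, 50.5 and 42.8 CPM in controls, 55.4, 53.2 and 53.8 CPM with source oil and 49.6, 54.9 and 57.3 CPM with slick oil. The source-oil libraries lay above all controls, and 1 slick-oil library lay among them. The log2 differences were 0.27 (2 SE range 0.03 to 0.51; edgeR adjusted p = 0.117) and 0.26 (0.03 to 0.50; adjusted p = 0.124), a range that lies below the 1.28 of NOTUM with source oil. NKD1 at 72 hpf stood between 21.7 and 26.6 CPM in all 9 libraries, with log2 differences of -0.03 and 0.10 that were not called. With slick oil at 24 hpf NKD1 was at 33.3 to 39.7 CPM against 28.5 and 31.1 CPM in controls, a log2 difference of 0.30 that did not pass the test (edgeR adjusted p = 0.444).

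DKK1, the secreted LRP blocker, rose with source oil at 72 hpf. The controls held 10.4, 11.7 and 7.49 CPM and the source-oil libraries 20.4, 20.6 and 19.0 CPM, with a wide gap between them. The increase of 1.04 on the log2 scale (SE 0.21, a 2.06-fold change, edgeR adjusted p = 0.00055) was the nearest in size to that of NOTUM among the other members there. With slick oil the libraries held 10.4, 15.5 and 13.1 CPM and overlapped the controls, and the log2 difference of 0.43 did not pass the test (edgeR adjusted p = 0.213). Earlier differences were 0.35 with source oil at 24 hpf, -0.46 with slick oil at 24 hpf and 0.44 with slick oil at 48 hpf, none of them called.

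SFRP2, a soluble Frizzled-like binder of Wnt ligands, was the member that fell most often, in 4 of 5 oil comparisons. With source oil at 24 hpf it went from 158, 141 and 145 CPM in controls to 121, 102 and 88.7 CPM, without overlap, and fell by 0.51 on the log2 scale (SE 0.09, edgeR adjusted p = 0.00125). With slick oil at 24 hpf it went from 137 and 142 CPM to 101, 102 and 98.9 CPM and fell by 0.45 (SE 0.09, edgeR adjusted p = 0.00602). The 24 hpf slick-oil call was lost without either control and without the first oil library (adjusted p from 0.058 to 0.205). The 24 hpf comparisons use separate libraries, tables and controls.

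At 72 hpf SFRP2 held 90.3, 89.8 and 102 CPM in controls, 70.5, 58.4 and 60.7 CPM with source oil and 68.0, 76.9 and 45.3 CPM with slick oil. All 6 oil libraries lay below the controls. It fell by 0.56 with source oil (SE 0.11, edgeR adjusted p = 0.000574) and by 0.55 with slick oil (SE 0.12, adjusted p = 0.00158). At 48 hpf the slick-oil libraries held 140.3, 182 and 171 CPM and overlapped the controls at 195, 185 and 175 CPM, with a log2 difference of -0.16 (edgeR adjusted p = 0.458).

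SFRP1, a close relative, fell with slick oil at 72 hpf only among the 5 oil comparisons. It held 35.2, 31.5 and 27.8 CPM in controls and 27.7, 19.9 and 17.9 CPM with slick oil, a fall of 0.51 (SE 0.17, edgeR adjusted p = 0.03). That call was lost without the first control and without the second or the third slick-oil library (adjusted p from 0.114 to 0.154), and with DESeq2 (adjusted p = 0.129). The differences at the earlier ages were also negative with slick oil, at -0.29 (24 hpf) and -0.33 (48 hpf), and were not called. Whether the SFRP1 effect differed between slick and source oil was tested directly, and the log2 difference of -0.26 did not pass (edgeR adjusted p = 0.326).

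WIF1, another secreted ligand binder, was measured only in the 24 hpf source-oil table, at 147, 128 and 122 CPM in controls and 129, 106 and 115 CPM with oil. The groups overlapped, and the log2 difference was -0.18 (edgeR adjusted p = 0.324). RSPO3, the 1 member that raises receptor levels, was not called in any oil comparison. At 72 hpf it held 10.7 to 12.4 CPM in controls, 7.74 to 9.10 CPM with source oil and 10.6 to 16.6 CPM with slick oil.

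**Figure D3:**
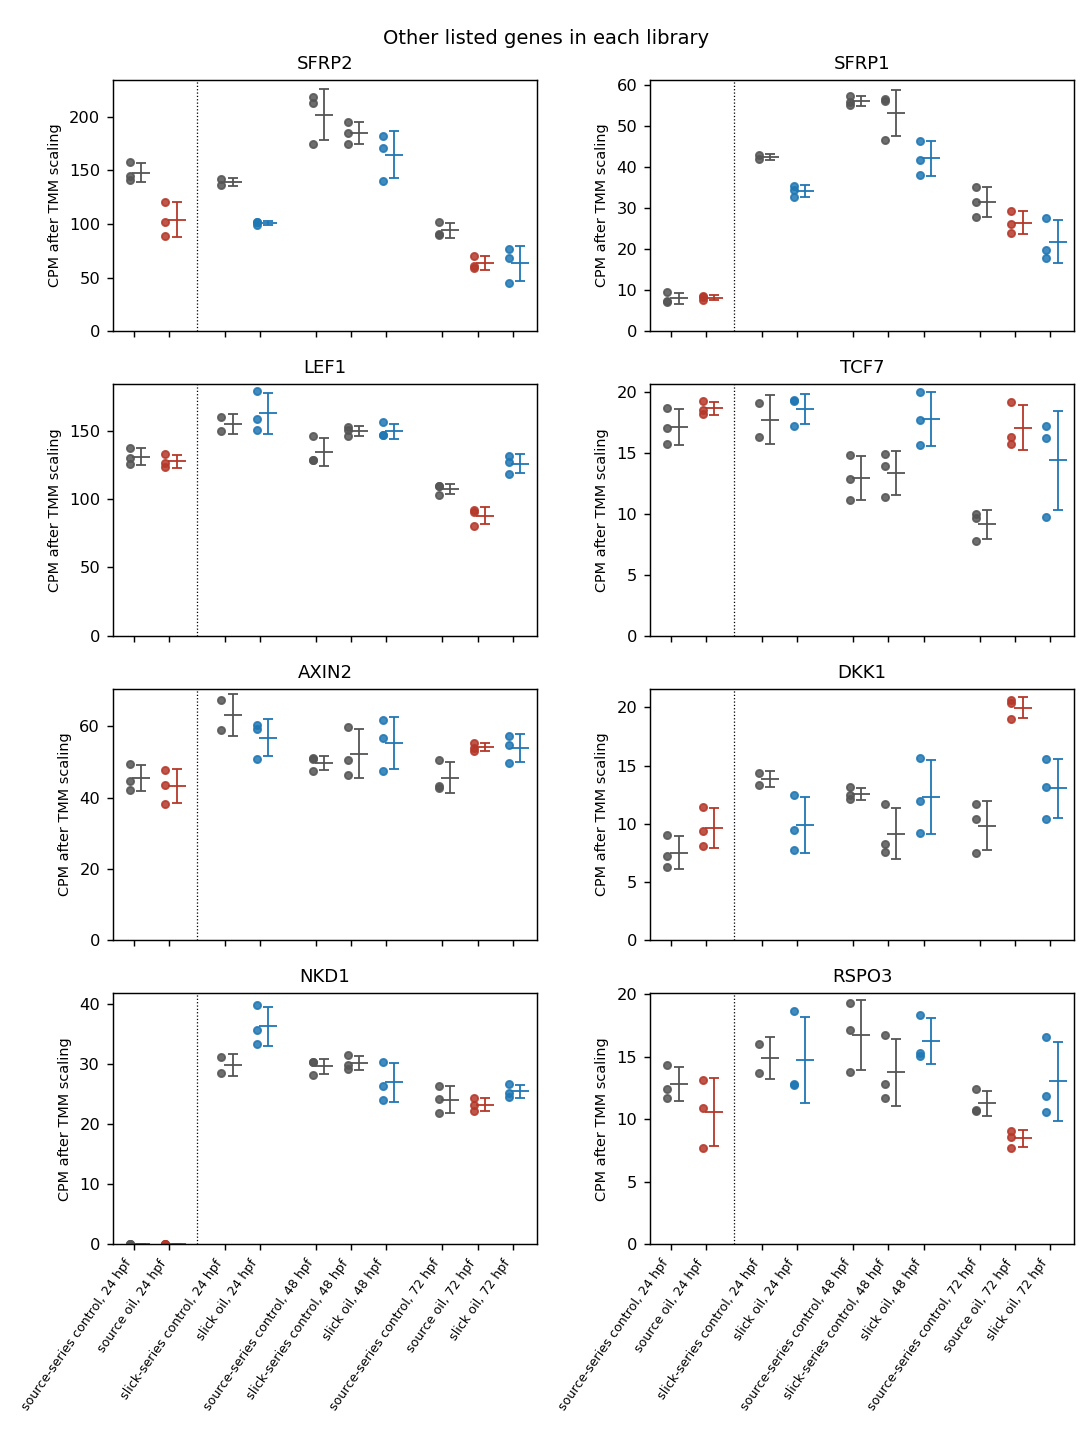
Level (CPM) of 8 other members in each library by age and treatment, with the mean and SD of each group; left of the dotted line is the 24 hpf source-oil table on its own scale. Right of it, the group means of SFRP2 and SFRP1 are highest in the 48 hpf controls and lowest in the 72 hpf oil groups, while DKK1 and TCF7 are highest with source oil at 72 hpf among that age's groups.

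Set directly against each other at 72 hpf, the oil groups differed in LEF1 and DKK1. The controls drop out of this contrast, but a difference between the series does not. LEF1 was higher with slick than with source oil by 0.54 on the log2 scale (SE 0.10, edgeR adjusted p = 0.000204). DKK1 was lower with slick oil, with a log2 difference of -0.60 (SE 0.19, edgeR adjusted p = 0.0252), a call lost without the first or second source-oil library, without the first or the third slick-oil library (adjusted p from 0.0523 to 0.144) and with DESeq2 (adjusted p = 0.144). These are 2 of 8 members, where 17.5% of all genes were called. In clean water at 48 hpf the slick series differed from the source series by -0.48 for DKK1 and 0.15 for LEF1. Neither overlapped and neither was called (edgeR adjusted p = 0.21 and 0.375). The part of the series in the 72 hpf differences was not tested. The doses at 72 hpf also differed, at 0.27% and 2.5%, so the 72 hpf values compare exposures and not oils at a matched dose. For AXIN2 the slick minus source difference was 0.01 with a 2 SE range from -0.22 to 0.24, and for SFRP2 it was 0.02 with a range from -0.25 to 0.30.

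Several members differed between ages in clean water. From 24 to 48 hpf in the slick series, SFRP2 rose by 0.43 (edgeR adjusted p = 0.000189), SFRP1 rose by 0.34 (adjusted p = 0.0304) and DKK1 fell by 0.59 (adjusted p = 0.0487). These were 3 of 8, where 46.8% of all genes were called. The SFRP1 and DKK1 calls were each lost in 4 of 5 fits that left out 1 library and with DESeq2 (adjusted p = 0.195 and 0.262), while that of SFRP2 was not. From 48 to 72 hpf in the source series all 8 log2 differences were negative, with a median of -0.44 against -0.01 over all genes, and 4 of 8 were called where 30.9% of all genes were. SFRP2 fell by 1.11 (edgeR adjusted p = 3.82e-08), SFRP1 by 0.85 (adjusted p = 1.62e-05), RSPO3 by 0.58 (adjusted p = 0.0345) and LEF1 by 0.33 (adjusted p = 0.0128). The RSPO3 call was lost in 4 of 6 fits that left out 1 library and with DESeq2 (adjusted p = 0.14), and that of LEF1 without 1 of the 72 hpf controls.

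NOTUM did not share that downward step. Its clean-water differences were -0.07 from 24 to 48 hpf and 0.03 from 48 to 72 hpf, and in slick oil they were 0.35 and 0.85, all on the log2 scale and given as a description. In slick oil from 24 to 48 hpf, SFRP2 rose by 0.71 (edgeR adjusted p = 2.55e-05) and NKD1 fell by 0.42 (adjusted p = 0.0224), 2 of 8 where 38.2% of all genes were called. From 48 to 72 hpf in slick oil SFRP2 fell by 1.38 (adjusted p = 5.75e-07), SFRP1 by 0.95 (adjusted p = 0.000118) and LEF1 by 0.25 (adjusted p = 0.0263), 3 of 8 where 41.2% were called. Fits that left out 1 library lost the NKD1 call in 3 of 6 and this LEF1 call in 4 of 6, and DESeq2 lost both (adjusted p = 0.0874 and 0.0749).

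Whether the slick-oil effect itself differed between ages was tested for the other 8 as an interaction, and 0 of 8 passed in each of the 3 age pairs by edgeR. The share of all genes called was 0% for 48 against 24 hpf, 7.16% for 72 against 48 hpf and 3.97% for 72 against 24 hpf. At an unadjusted p under 0.05 there were 3, 1 and 2 of the 8, in that order. Over all genes tested, 1077 of 9495, 2087 of 9397 and 1436 of 9548 passed that unadjusted threshold. For 48 against 24 hpf DESeq2 also called 0 genes. In simulated counts, with the same scatter set for every gene, only 33% of 2-fold differences were recovered in the 72 against 48 hpf contrast. A lack of calls there is weak by itself, and the members' own 2 SE ranges are given beside it. They were -0.20 to 0.50 (AXIN2), -0.02 to 0.45 (LEF1), -0.38 to 0.83 (TCF7) and -0.72 to 0.65 (DKK1). For the others they were -0.62 to 0.22 (SFRP1), -0.77 to -0.05 (SFRP2), -0.16 to 0.63 (NKD1) and -0.62 to 0.55 (RSPO3). The widest differences were those of DKK1, with a slick-oil effect larger by 0.93 at 48 than at 24 hpf (SE 0.36, edgeR adjusted p = 0.361) and by 0.85 at 72 than at 24 hpf (SE 0.34, adjusted p = 0.202). The 72 hpf term uses source-series controls. Between the clean-water libraries of the series at 48 hpf, 0 of 8 members were called by edgeR, where 4.45% of all genes were. At an unadjusted p under 0.05 there was 1 of the 8, and 1903 of all 9097 genes tested.

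The libraries are whole animals, so a lower share of cells of a type and less RNA per cell cannot be told apart. At 72 hpf the summed CPM of 4 gut markers was 248 to 340 in controls, 392 to 437 with source oil and 379 to 429 with slick oil, with VIL1 at 0. That of 5 fin and limb mesenchyme markers was 19.6 to 22.6, 29.8 to 38.6 and 28.5 to 38.1 in the same order, with PRRX1, HAND2 and MSX1 at 0. At 72 hpf both sums were higher in all 6 oil libraries than in any control, as NOTUM was. Only 2 markers of each list could be tested there, and 1 of the 2 was called higher with each oil. The share of all genes called was 20.4% with source oil and 18.7% with slick oil. With slick oil at 48 hpf, where NOTUM lay above its controls without overlap, both sums overlapped those of the controls. The gut sum there was 67.1 to 127 CPM against 85.04 to 138 CPM in controls. The fin and limb sum was 41.7 to 58.8 CPM against 39.2 to 42.7 CPM. The part of these sums in the NOTUM difference was not tested. The 6 cartilage markers summed to 5685 to 6092 CPM in controls and 4541 to 5010 CPM with slick oil at 24 hpf, with MATN1 at 0. At 48 hpf their sum was also lower with slick oil, at 6183 to 9254 CPM against 9268 to 11774 CPM, where SFRP2 was not called. Of the cartilage markers tested with slick oil, 2 of 5 were called lower at 24 hpf, where 2.19% of all genes were called. At 48 hpf 0 of 6 were called, where 2.66% of all genes were. At 72 hpf the same sum was 4547 to 5937 CPM in controls, 3934 to 4754 CPM with source oil and 4104 to 5627 CPM with slick oil. Of 6 cartilage markers tested at 72 hpf, 2 were called lower with source oil, where 20.4% of all genes were called. With slick oil 1 was called higher and 1 lower, where 18.7% of all genes were called. Liver markers summed to 673 to 903 CPM in the 72 hpf controls, 653 to 940 CPM with source oil and 382 to 581 CPM with slick oil, with TF and APOA1 at 0. Of 5 liver markers tested there, 1 was called higher and 2 lower with source oil, where 20.4% of all genes were called. With slick oil 5 of 5 were called lower, where 18.7% of all genes were called. Epidermal markers summed to 669.8 to 745 CPM in controls, 863 to 899 CPM with source oil and 614 to 739 CPM with slick oil, with KRT5 and KRT18 at 0. Neuronal markers summed to 586 to 657 CPM in controls, 499 to 518 CPM with source oil and 537 to 582 CPM with slick oil, and skeletal muscle markers to 35629 to 44399, 41006 to 48120 and 31462 to 32643 CPM. In the epidermal, neuronal and muscle lists 4 markers each were tested at 72 hpf. With source oil 2 epidermal markers and 1 muscle marker were called higher and 2 neuronal markers lower (20.4% of all genes called). With slick oil 1 epidermal, 1 neuronal and 2 muscle markers were called lower (18.7% called). With source oil at 24 hpf, where SFRP2 fell, skeletal muscle markers summed to 51752 to 65481 CPM against 47241 to 51671 CPM in controls, and cartilage markers to 2654 to 3786 CPM against 3397 to 3952 CPM. Of 5 muscle markers tested there, 0 were called higher and 1 lower, with ACTA1 at 0. Of 6 cartilage markers tested, 0 were called higher and 1 lower. There 4 of 6 liver markers tested were called higher, where 5.42% of all genes were called. The liver sums were 2140.3 to 3098 CPM against 1442 to 2173 CPM. The part of these cell types in the members' differences was not tested.

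Elsewhere in the pathway, 102 further genes were listed by role. With source oil at 72 hpf, 71 were tested, of which 9 rose and 2 fell, and with slick oil 72 were tested, of which 8 rose and 1 fell. These counts stand beside 20.4% and 18.7% of all genes called, and DESeq2 called 7 of the list with source oil. The median log2 difference was 0.12 with source oil and 0.04 with slick oil. At 24 hpf 2 of 73 rose with source oil, where 5.42% of all genes were called, and 3 of 71 rose and 1 fell with slick oil, where 2.19% were. DESeq2 called 0 of the list with slick oil at 24 hpf. At 48 hpf 1 of 73 rose with slick oil, where 2.66% of all genes were called.

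Among the 19 ligand genes, WNT2B and WNT9B recurred. WNT2B rose with source oil at 24 hpf (0.50, edgeR adjusted p = 0.00629) and 72 hpf (0.74, adjusted p = 0.000455), and with slick oil at 24 hpf (0.65, adjusted p = 0.0147) and 72 hpf (0.63, adjusted p = 0.00148). With slick oil at 48 hpf WNT2B stood at 0.20 and did not pass (adjusted p = 0.432). WNT9B rose with source oil at 24 hpf, from 54.3 ± 8.37 to 78.9 ± 12.2 CPM (SD, n = 3 each; 0.54, edgeR adjusted p = 0.00581), and with slick oil at all 3 ages, by 0.45, 0.57 and 0.62 (adjusted p = 0.0304, 0.00353 and 1.39e-05). With source oil at 72 hpf WNT9B stood at 0.30 and did not pass (adjusted p = 0.058). WNT10A fell by 0.85 with slick oil at 24 hpf (edgeR adjusted p = 0.00818) and rose by 0.84 with source oil at 72 hpf (adjusted p = 0.0035). The WNT9B call with source oil at 24 hpf was lost without the second control (adjusted p = 0.0625).

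In the R-spondin axis, which sets receptor levels, RSPO2 was higher at 72 hpf with both oils than in the controls they share. In clean water RSPO2 was called lower at 72 than at 48 hpf. With slick oil its mean was 49.7 CPM at 24 hpf and 44.9 CPM at 48 hpf, so it did not rise with age there. The values at 72 hpf follow. It was at 26.5 ± 2.30 CPM in controls, 47.8 ± 4.45 CPM with source oil (0.87, edgeR adjusted p = 3.51e-05) and 42.9 ± 2.40 CPM with slick oil (0.71, adjusted p = 0.000226; SD, n = 3 each). LGR4, an R-spondin receptor, rose by 0.56 with slick oil at 72 hpf (edgeR adjusted p = 0.00142) and by 0.36 with source oil (adjusted p = 0.0476). That source-oil call of LGR4 was not checked under the alternative fits. These genes act in the direction opposite to NOTUM and DKK1 in the textbook pathway.

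Of the remaining named genes, GPC4, a cell-surface glypican, rose by 1.19 with source oil at 72 hpf (edgeR adjusted p = 4.66e-05). TCF7L2, a DNA-binding partner of beta-catenin, fell by 0.44 there (adjusted p = 0.00142) and was at 0.01 with slick oil (adjusted p = 0.941). The direct contrast of slick against source oil for TCF7L2 was 0.47 (edgeR adjusted p = 0.000407). DVL1, a relay protein below the receptors, rose with slick oil at 24 hpf (0.61, adjusted p = 0.0269) and 72 hpf (0.46, adjusted p = 0.00149), but stood at -0.16 at 48 hpf (adjusted p = 0.519). Its slick-oil effect was larger by 0.61 at 72 than at 48 hpf (edgeR adjusted p = 0.0131), with source-series controls at 72 hpf. That was the 1 call among 74 listed pathway genes tested there, where 7.16% of all genes were called. The 24 hpf slick-oil calls of WNT2B, WNT9B, WNT10A and DVL1 were all lost with DESeq2 (adjusted p from 0.129 to 0.264) and without either of the 2 controls.

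**Figure D4:**
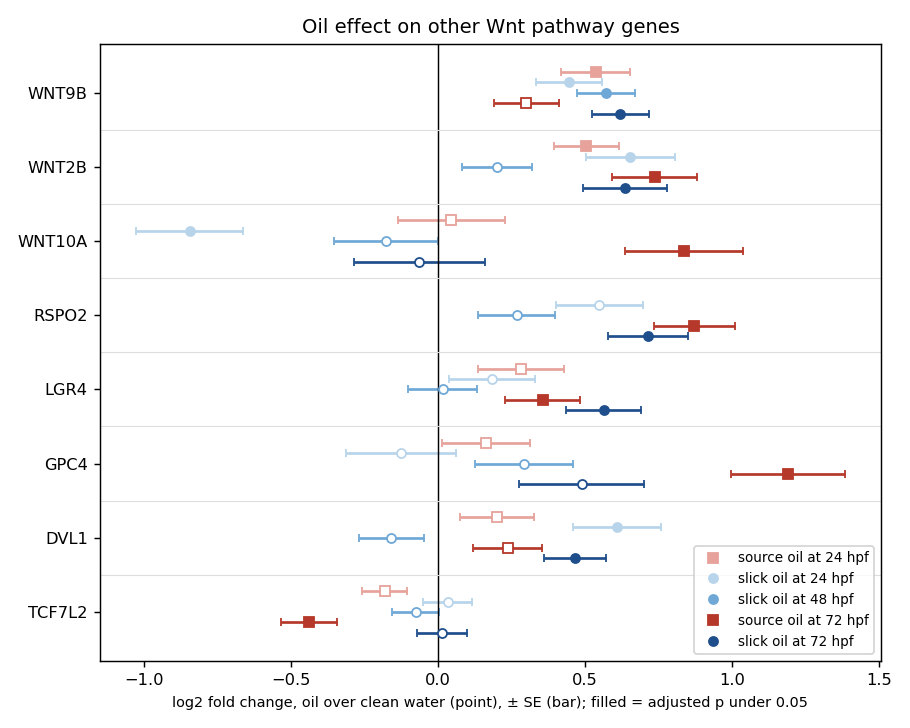
Log2 difference, oil against clean water, of the named Wnt pathway genes outside the 10 members in the oil comparisons where they were tested, with bars of 1 standard error to each side; filled symbols have an edgeR adjusted p under 0.05. WNT2B and WNT9B are positive in every comparison shown, and GPC4 reaches 1.19 with source oil at 72 hpf.

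As a description over the 8 groups outside the 24 hpf source-oil table, 9764 genes were ranked by the Pearson correlation of their mean log2 CPM with that of NOTUM. These points share libraries and controls, and 69 genes had r above 0.9. The 8 groups mix age with oil and include the slick-oil values for which NOTUM was picked. The r values are therefore no test of a shared response to oil. The 5 closest were WFS1 (0.991), an endoplasmic reticulum membrane protein, ETV4 (0.966), a transcription factor of the ETS family, SQLE (0.963), squalene epoxidase of sterol synthesis, CNNM3 (0.957) and FASTKD3 (0.954). SQLE and FASTKD3 did not pass the count filter with slick oil at 24 or 48 hpf. Their r therefore rests on the 72 hpf oil groups, where NOTUM is high. CNNM3 was not called at 72 hpf with source oil (edgeR adjusted p = 0.17) or slick oil (adjusted p = 0.082). None of the feedback genes was near the top. DKK1 came first among them with r = 0.67 at rank 948, followed by TCF7 (0.26), AXIN2 (0.13), LEF1 (-0.56), RSPO3 (-0.57), NKD1 (-0.58), SFRP2 (-0.78) and SFRP1 (-0.81). Of these, LEF1, RSPO3, SFRP2 and SFRP1 also fell from 48 to 72 hpf in clean water.

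**Figure D5:**
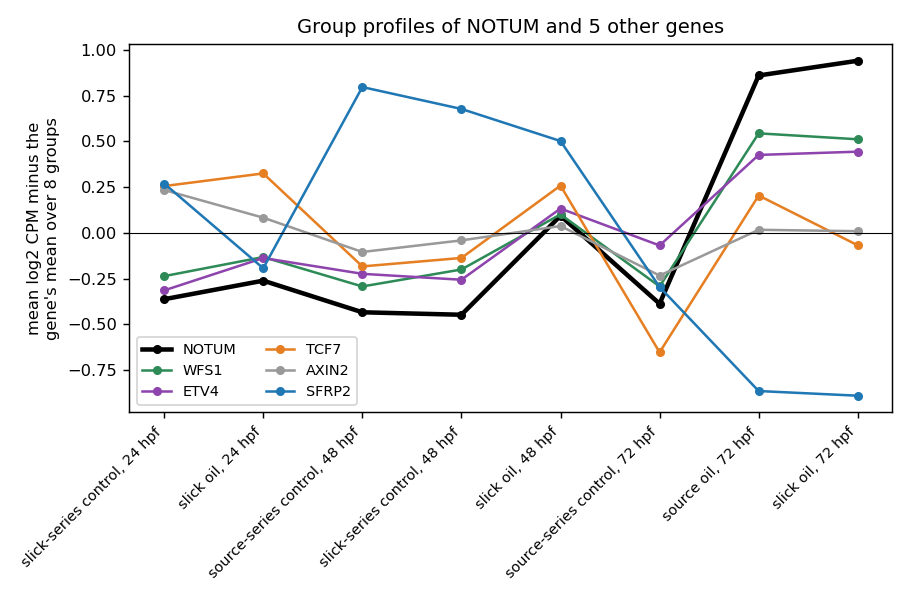
Mean log2 CPM of NOTUM, of WFS1 and ETV4 as its closest genes, and of TCF7, AXIN2 and SFRP2 in the 8 groups, each minus the gene's own mean over the groups. NOTUM, WFS1 and ETV4 are highest in the 72 hpf oil groups, whereas SFRP2 is lowest there.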

How the data were processed

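RNA libraries of whole embryos and larvae were made with a TruSeq kit and sequenced on a HiSeq2500, per the labels' protocols. The authors deposited 6 tables of 56346 rows, each with raw read counts per gene and human gene symbols beside DESeq2 output. Per the submitters' processing notes, HTSeq, DESeq2 and the human build hg19 were used, with no role given. How fish reads were aligned and came to have human symbols is not stated, so paralogs may be merged or split. The deposited tables also hold the authors' mean signal, log2 fold change, its standard error, a score (the Wald statistic) and p-values; of these only log2 fold changes of NOTUM are quoted.

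The row with the largest total was kept for each symbol. 1 library column that matched no single sample was not used, and 6 libraries stand in more than 1 table and were read once per comparison. Counts were tested per comparison in R 4.3.3 with the package edgeR, version 4.0.16 (TMM scaling, filterByExpr, glmQLFit and glmQLFTest, Benjamini-Hochberg adjustment over all genes tested, calls at 0.05, SE from the F statistic). CPM levels use TMM factors set once for the 24 hpf source-oil table and once for the 23 libraries of the other tables, and correlations used log2 CPM with a prior count of 2. The procedure was tested on simulated counts, of which 2-fold changes in 200 genes were recovered at 81.5% (source oil, 24 hpf), 66.5% (slick oil, 24 hpf), 80% (slick oil, 48 hpf) and 33% (72 against 48 hpf effect difference). False calls among the unchanged genes were 2, 5, 14 and 3, in that order. The same scatter was set for every gene, which real counts need not follow.

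The members and gene lists were chosen with earlier results of these data known. Named genes were all 10 members, up to 4 called genes of the 102 listed pathway genes with the smallest adjusted p per oil comparison, the 5 genes most like NOTUM, and CYP1A1. Alternatives were DESeq2 1.42.0, its size-factor scaling, no filter, a fit of all libraries, a replicate block, the 48 hpf column kept, and each library left out. With counts of about 156 to 459 per library outside the 24 hpf source-oil table, NOTUM is precise against counting error. Replicate pairs differed beyond sampling noise, with a chi-square per degree of freedom of 1.42 or more. No sequences were available to print here.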

Additional observations from a re-analysis of the deposited data

Results flagged for a closer look

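LEF1 differed between the oils at 72 hpf, with slick oil above source oil by 0.54 on the log2 scale (edgeR adjusted p = 0.000204), in all 3 libraries of one group against all 3 of the other. DKK1 differed in the other direction, at -0.60 (edgeR adjusted p = 0.0252), also without overlap between the 3 libraries of each oil. The DKK1 call was lost in 4 of 6 fits that left out 1 library and with DESeq2 (adjusted p = 0.144), while that of LEF1 was not. The doses differed, and the slick-oil libraries repeat sheet numbers of other libraries. Clean-water libraries of the series at 48 hpf differed in the same directions, slick minus source, by 0.15 (LEF1) and -0.48 (DKK1). Neither was called, and the part of the series was not tested.

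NOTUM had a slick-oil effect larger by 0.78 on the log2 scale at 72 than at 48 hpf and by 1.18 at 72 than at 24 hpf. NOTUM was picked for this pattern, so the values are a description. The 72 hpf effect was measured against controls of the source series. No group held 4 or more libraries, so single libraries were not screened as outlying.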

How the results depend on the processing

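No call changed direction under any alternative run. With source oil at 24 hpf, 531 genes were called by edgeR, 350 by DESeq2 and 850 with the replicate number as a block; with the block 2 members were called, NOTUM (0.33, adjusted p = 0.0192) beside SFRP2. Same-numbered libraries there correlated at 0.136, 0.0164 and 0.123, and those with different numbers at -0.212 to 0.0883. These values do not settle whether the numbers pair samples, and the main fit used no block. At 48 and 72 hpf the columns carry codes but no label numbers. A replicate block on the codes, chosen after seeing the data, gave 2010 genes and 5 members with source oil at 72 hpf and 98 genes and 0 members with slick oil at 48 hpf. Same-code libraries correlated at 0.0207 to 0.0841 and at -0.205 to 0.0179, and those with different codes at -0.111 to 0.0415 and at -0.135 to 0.169. These values do not settle pairing either, and the codes were not taken to pair samples. DESeq2 called 1186 genes with source oil at 72 hpf, 105 with slick oil at 24 hpf, 958 genes and 2 members with slick oil at 72 hpf, 933 genes and 1 member for slick against source oil, and 1 member each for the 24 to 48 hpf step in controls and in slick oil. With slick oil at 24 hpf, keeping the 48 hpf column gave 17 genes and 0 members and the fit of all libraries 0 members; that fit gave 424 genes with slick oil at 48 hpf. Leaving out 1 library gave, for genes and members, 344 to 571 and 1 to 2 (source oil, 24 hpf), 1306 to 1832 and 4 (72 hpf), 63 to 489 and 0 to 1 (slick oil, 24 hpf), 102 to 940 and 1 (48 hpf), 2 to 4 members (72 hpf), 1053 to 1660 and 1 to 2 (slick against source oil), and 97 to 1206 and 0 (control series). For the age steps it gave 3232 to 4379 and 1 to 3 (controls, 24 to 48 hpf), 2071 to 3011 and 3 to 4 (48 to 72 hpf), 2749 to 3303 and 1 to 3 (slick oil, 24 to 48 hpf) and 3008 to 4215 and 3 to 4 (48 to 72 hpf). For the slick-effect differences it gave 0 to 190 and 0 (48 against 24 hpf), 351 to 1190 and 1 to 2 (72 against 48 hpf) and 205 to 473 and 1 (72 against 24 hpf). All member counts for slick oil, its age steps and its effect differences include NOTUM where it passed, which was selected on those values and is no test there. For the effect differences with 72 hpf the 1 member in common is NOTUM itself. The causes were not tested. Low counts limit DKK1, TCF7 and RSPO3, which stood under 25 CPM in every library.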

Other observations

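Some symbols had values in the 24 hpf source-oil table that were far from those in the other tables. WIF1 stood at 106 to 147 CPM there and had no count in the other 23 libraries, while NKD1 had no count there and stood at 21.7 to 39.7 CPM elsewhere. SFRP1 was at 8.04 ± 1.34 CPM in the controls of that table (SD, n = 3) and at 42.5 ± 0.669 CPM in the 24 hpf slick-series controls (n = 2).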
